A study of Mus musculus with 4 samples.

Results

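The comparison asks whether hepatocytes without the phosphatase gene Dusp6 answered fatty acids as wild-type hepatocytes did. Its measure was the 2 by 2 interaction of genotype and fatty acids, which for each gene is the fatty acid response in knockout cells minus that in wild-type cells. Of 45777 genes in the deposited table, the 11927 whose FPKM (fragments per kilobase of transcript, scaled to the size of the library) reached 1 in any library were compared. The cut left 1597 genes whose highest FPKM lay between 1 and 2 just inside, and 1751 whose highest FPKM lay between 0.5 and 1 just outside. The cells were primary hepatocytes from mouse liver, cultured for 3 h in medium with 10% serum and then kept for 24 h. Wild-type cells (WT) and cells of Dusp6 knockout mice (KO) were each either left untreated or given 0.5 mM palmitic acid with 1 mM oleic acid, a saturated and a monounsaturated fatty acid that together load hepatocytes with lipid. The design, deletion or exon behind the knockout, the age and sex of the mice, the number of mice behind a library and whether untreated cultures received a vehicle could not be read from the labels.

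Each of the 4 groups held 1 library of total RNA. All 4 libraries enter the interaction once and no residual degree of freedom is left, so nothing here has a replicate check, and p-values are left out. A rule of size stood in for a test. A gene was called higher or lower in KO where its responses differed by 2-fold or more on the log2(FPKM + 1) scale, a scale that understates changes of low genes. Each response was taken relative to its median over 5903 reference genes, those whose FPKM was 5 or more in each library. That median was -0.26 in WT and 0.16 in KO on the deposited scale, so centring lowered every interaction by 0.42. Unless the deposited scale is named, log2 values below are centred in this way. Intervals beside ratios of read counts are exact 95% conditional intervals of the KO read fold over the WT read fold, relative to the median gene. Only counting error enters them, and reads without molecular identifiers are not independent molecules.

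Dusp6 removes phosphates from the kinase ERK, which stands at the end of a cascade by which growth factors act on transcription. ERK signalling raises immediate early genes such as Egr1, and Dusp6 is itself raised by it, which forms a feedback loop. In the liver, long-chain fatty acids are ligands of the nuclear receptor PPARα, which drives genes of fatty acid oxidation and fuel choice. Saturated fatty acids are also known to engage stress kinases and the inflammatory factor NF-kappaB in hepatocytes and macrophages.

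The libraries held 85423156 to 97364292 reads, and all 18 hepatocyte markers in the table were detected, with a summed FPKM of 14028 to 21961. Dusp6, the deleted gene, had an FPKM of 40.7 and 77.1 in WT without and with fatty acids and 1.42 and 1.11 in KO, so each library matched its genotype label. The 4 libraries differed in abundant noncoding RNA. Rn7s1 and Rn7s2, the RNAs of the signal recognition particle, held 6.20% of the reads of the untreated and 8.20% of the treated WT library, but 3.94% and 2.60% in KO. The largest interaction of any gene, -6.34, belonged to the ribosomal RNA pseudogene Rn18s-rs5, singled out after its values were seen. Its FPKM was 28.4 and 54.6 in WT without and with fatty acids, and 555 and 16.4 in KO, so that the untreated KO library stood apart from the other 3. Genes for the U3 small nucleolar RNA, near-identical copies also singled out afterwards, had the same high library, with Rnu3a at 10.4, 31.8, 68.7 and 21.6 in that order. The part of these differences in the results below was not tested.

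The WT and the KO response shared almost no order across genes. Over the 11927 genes Spearman's rank correlation between them was 0.03 and Pearson's r was 0.04, with no library entering both, and the spread was alike, with SDs of 0.46 and 0.43 on the log2 scale. Genes are not independent replicates, and these values describe 4 libraries. The responses also leaned in opposite directions at their extremes. In WT 426 genes rose (3.57% of genes compared) and 78 fell (0.654%), whereas in KO 12 rose (0.101%) and 602 fell (5.05%). These counts depend on centring, which took off medians of -0.26 in WT and 0.16 in KO and so moved them towards this lean. Rises and falls on the deposited scale were not counted.

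By the 2-fold rule the response was lower in KO for 1273 genes (10.7% of those compared) and higher for 136 genes (1.14%). On the deposited scale this split was 479 lower (4.02%) and 757 higher (6.35%), so the direction that held more genes depended on centring. Counts of list members below are to be read against these shares of all genes. The median interaction over all compared genes was -0.20, with an interquartile range of -0.61 to 0.16. Past 2-fold under each of 8 scalings, including an adjustment for transcript length, were 252 genes lower (2.41% of 10445 genes with a length) and 72 higher (0.689%), a set defined after the data were seen. Of these, 243 and 71 code for proteins. The 4-fold rule left 128 genes lower (1.07%) and 3 higher (0.0252%). Of the lower calls 665, and of the higher calls 104, lay between 2-fold and 2.5-fold. The counting interval lay below 1 for 1211 of the 1273 lower calls and above 1 for 132 of the 136 higher calls. A count of 0 reads in at least 1 library touched 44 lower and 4 higher calls.

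**Figure D1:**
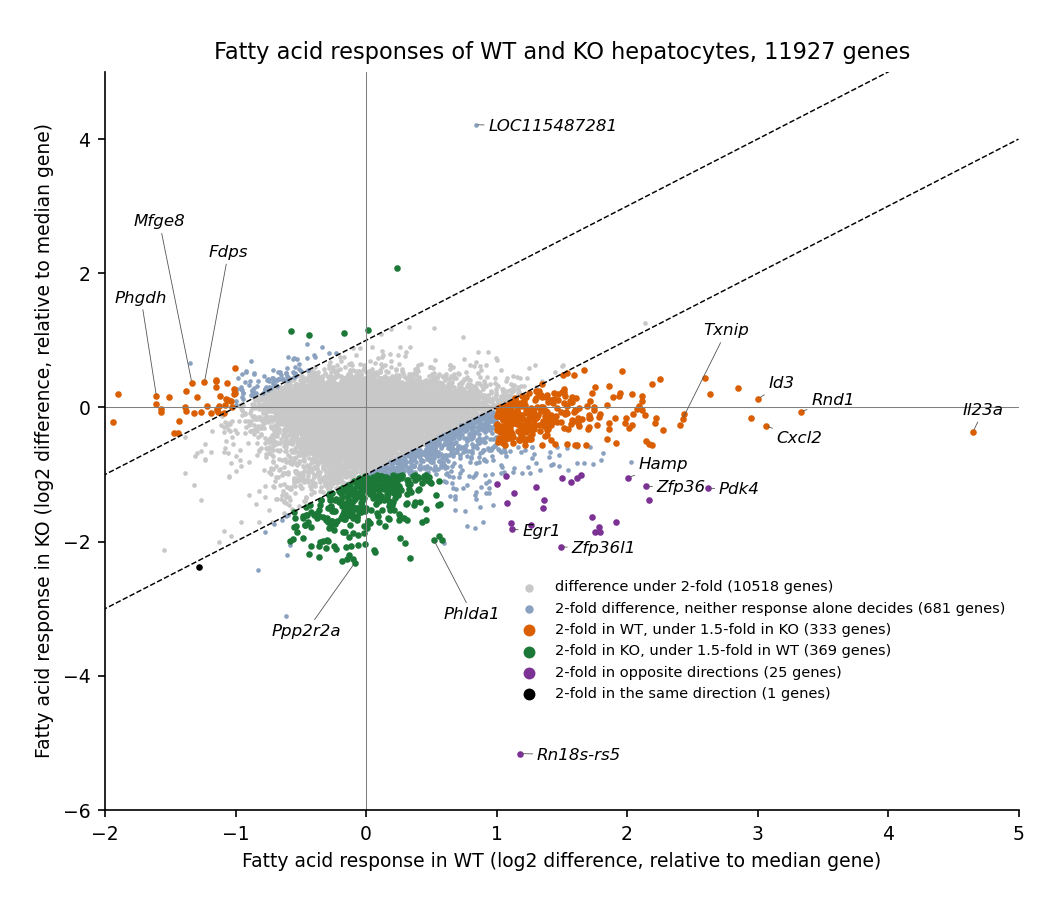
Fatty acid response of each of 11927 genes in WT (horizontal axis) and in KO (vertical axis), as log2(FPKM + 1) with fatty acids minus untreated, relative to the median gene, 1 library per group. Dashed lines mark a 2-fold difference between the responses, and colours the response classes. Il23a, Rnd1, Cxcl2 and Id3 lie far to the right near a KO response of 0, whereas Pdk4, Zfp36l1, Zfp36 and Egr1 lie to the right and below 0.

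Lower calls came by different routes. In 994 of the 1273, WT stood above and KO below the median gene. A first class of 294 genes (23.1% of lower calls) rose at least 2-fold in WT and moved less than 1.5-fold in KO, with a median WT response of 1.31 and a median KO response of -0.16. A second class of 364 genes (28.6%) fell at least 2-fold in KO and moved less than 1.5-fold in WT, with medians of -0.01 in WT and -1.33 in KO. Another 25 genes rose at least 2-fold in WT and fell at least 2-fold in KO. The largest part, 589 genes (46.3%), met the rule of no class, with median responses of 0.66 in WT and -0.65 in KO. In the other direction, 39 genes (28.7% of higher calls) fell in WT alone, 5 rose in KO alone and 92 (67.6%) met the rule of no class. Only Aak1, a kinase of clathrin adaptors, was called with 2-fold responses in the same direction, at -1.28 in WT and -2.38 in KO, and after adjustment for GC content and transcript length its interaction was -0.05.

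Of 34 compared cytokines, chemokines and other genes of the NF-kappaB response, 16 rose in WT and 0 in KO. By the interaction 22 were lower in KO and 0 higher, with a median interaction of -1.20 (-0.77 on the deposited scale, where 11 were lower). Over all genes 10.7% were lower, and 4.02% on the deposited scale. Il23a, the p19 subunit of interleukin 23 (Entrez 83430, chromosome 10, 128296140 to 128298084 in RefSeq on GRCm38.p6), had the lowest interaction of any protein-coding gene. Its FPKM went from 5.73 to 140.1 in WT and was 0.367 and 0.192 in KO. WT with fatty acids was the high library, and both KO libraries were below both WT libraries. The responses were 4.65 in WT and -0.36 in KO, and the ratio of read folds was 0.0160 (95% interval 0.00978 to 0.0259).

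Neutrophil and monocyte chemokines followed the same course. Cxcl2, a ligand of the neutrophil receptor CXCR2, went from an FPKM of 21.7 to 157 in WT and was 0.690 and 0.561 in KO, an interaction of -3.34 (ratio of read folds 0.0814, 95% interval 0.0576 to 0.115). Its neighbour Cxcl1 went from 135 to 684 in WT and from 8.64 to 13.6 in KO (interaction -2.16). Cxcl1 was added after its values were seen. In both genes the KO libraries lay below the WT libraries before and after treatment. Ccl7, a monocyte chemokine, was at 3.58 and 19.2 in WT and 1.08 and 0.941 in KO. Nfkbiz, which codes for a nuclear protein that acts on secondary NF-kappaB targets, went from 2.0 to 7.70 in WT and from 1.97 to 0.925 in KO (interaction -2.58). The interaction was -2.18 for the ubiquitin-editing inhibitor Tnfaip3 and -1.35 for Nfkbia, which codes for IκBα. Subunits of NF-kappaB itself had values of -1.04 for Nfkb1, -0.62 for Rela and -0.41 for Relb, of which the first passed the rule. Ptgs2, Il1a and Il1b, which are also known targets, had interactions of -0.18, -0.38 and -0.30.

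The start regions of the 2 chemokine genes are shown because they carry the same element, and those of Zfp36 and Hamp, described below, for comparison. Each is the RefSeq sequence of GRCm38.p6 from 250 bases before to 50 after the gene start. Capitals mark the match to the NF-kappaB element in Cxcl1 (chr5:90890995-90891294, plus strand, starting at -71 from the gene start) and Cxcl2 (chr5:90903649-90903948, plus strand, at -97). In Zfp36 (chr7:28379179-28379478, minus strand, at -58) they mark the serum response element and in Hamp (chr7:30943980-30944279, minus strand, at -87) the AP-1 element TGANTCA.
Cxcl1: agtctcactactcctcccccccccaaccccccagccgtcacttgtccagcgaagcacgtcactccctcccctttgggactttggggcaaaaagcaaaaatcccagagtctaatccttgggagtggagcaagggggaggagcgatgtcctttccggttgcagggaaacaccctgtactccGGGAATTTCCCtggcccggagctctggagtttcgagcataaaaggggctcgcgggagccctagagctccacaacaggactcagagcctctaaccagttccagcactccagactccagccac
Cxcl2: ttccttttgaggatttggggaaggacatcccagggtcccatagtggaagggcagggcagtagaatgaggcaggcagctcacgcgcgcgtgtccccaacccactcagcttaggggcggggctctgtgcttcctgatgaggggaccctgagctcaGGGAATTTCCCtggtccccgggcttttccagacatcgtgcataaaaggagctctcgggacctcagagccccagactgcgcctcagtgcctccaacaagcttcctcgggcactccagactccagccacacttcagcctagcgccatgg
Zfp36: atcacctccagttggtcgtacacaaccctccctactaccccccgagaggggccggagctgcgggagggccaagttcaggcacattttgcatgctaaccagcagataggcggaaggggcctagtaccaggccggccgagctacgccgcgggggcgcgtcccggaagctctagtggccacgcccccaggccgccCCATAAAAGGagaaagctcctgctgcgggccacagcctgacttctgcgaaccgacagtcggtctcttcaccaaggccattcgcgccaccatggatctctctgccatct
Hamp: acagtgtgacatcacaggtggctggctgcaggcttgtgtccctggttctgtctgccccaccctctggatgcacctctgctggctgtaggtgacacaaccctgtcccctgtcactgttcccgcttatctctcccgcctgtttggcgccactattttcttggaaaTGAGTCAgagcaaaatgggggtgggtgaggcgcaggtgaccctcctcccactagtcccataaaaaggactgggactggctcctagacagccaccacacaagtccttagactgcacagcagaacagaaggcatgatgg
In all, 10 motifs were searched on both strands. The other ones were the TATA box (TATAAA), the E-box (CACGTG), the cyclic AMP response element (TGACGTCA), the amino acid response element (TGATGNAA), the sterol regulatory element (TCACNCCAC), the antioxidant response element (TGACNNNGC) and the heat shock element, and none of these matched the 4 windows. Among the 8770 compared genes with a promoter sequence, 9.54% held the NF-kappaB element, 5.21% the AP-1 element, 1.44% the serum response element and 7.81% a TATA box. In the class that rose in WT alone and was lower in KO, with 164 promoters, these shares were 13.4%, 8.54%, 1.22% and 16.5%. In the class that fell in KO alone, with 267 promoters, they were 6.37%, 4.49%, 1.87% and 5.62%. A match is a run of letters and does not show binding.

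Macrophage markers moved with the chemokines. Of 16 compared markers, 13 were lower in KO, with a median interaction of -1.25 (5 lower, median -0.83, on the deposited scale). The share lower over all genes was 10.7%, and 4.02% on the deposited scale. Their summed FPKM went from 173 to 355 in WT and from 278 to 332 in KO, while that of the chemokine list went from 427 to 1516 in WT and from 239 to 263 in KO. The scavenger receptor Marco went from 4.83 to 25.3 in WT and was 3.45 and 3.64 in KO, which made the treated WT library the high one. For the complement subunit C1qc the values were 3.29 and 8.17 in WT and 13.1 and 11.9 in KO, so untreated WT was the low library. Sinusoidal endothelial markers had 6 of 10 lower and a median of -1.43 (6 lower, median -1.01, on the deposited scale), with summed FPKM of 11.6 and 24.0 in WT and 35.7 and 27.7 in KO. None of 19 macrophage or 16 endothelial markers in the table was at 0 reads in every library, but Timd4, Itgam and Cd163 among macrophage markers and Stab2, Lyve1, Clec4g, Kdr, Tek and Gpr182 among endothelial markers did not reach an FPKM of 1 in any library. Red blood cell markers had 2 of 5 lower and a median of -0.94 (0 lower, median -0.52, on the deposited scale), with the globins Hba-a1 and Hbb-bt at -1.14 and -1.28. Of 21 lymphocyte and neutrophil markers 3 were compared and none was called, though their median of -0.70 was past 1.5-fold. Of the stellate and bile duct markers 2 each were compared, with 1 and 2 of them lower. In bulk RNA, fewer cells of a type and less RNA per cell cannot be told apart. The part of these cells in the cytokine result was not tested.

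Genes of the ERK and immediate early response were lower in KO for 18 of 31 compared and higher for 0, with a median interaction of -1.32 (12 lower, 1 higher, median -0.90, on the deposited scale). The background of lower calls over all genes was 10.7%, and 4.02% on the deposited scale. Egr1, a zinc finger factor induced within minutes of ERK activation, was at 3.73 and 7.56 in WT and at 9.27 and 2.26 in KO. Its order thus crossed, with KO above WT before treatment and below it after. The responses were 1.12 and -1.82, and the ratio of read folds was 0.0883 (95% interval 0.0793 to 0.0983). Rnd1, an atypical small GTPase, went from 23.3 to 202 in WT and was 5.68 and 6.15 in KO (interaction -3.39), and the treated WT library stood above the rest. Areg, an EGF receptor ligand, had 1.78 and 13.4 in WT and 1.58 and 2.32 in KO. Among AP-1 subunits, the interaction was -1.52 for Fos, -1.48 for Junb and -1.33 for Fosl2. Jun, at 0.73, lay on the other side of 0 without passing the rule, with 58.3 and 28.7 in WT against 29.8 and 33.5 in KO.

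Phlda1, a feedback gene of ERK signalling, differed in its route. Its FPKM was 17.1 and 20.6 in WT but 30.8 and 8.08 in KO, so the KO pair carried the difference (0.52 in WT, -1.97 in KO). Among 18 compared feedback regulators and MAPK phosphatases 4 were lower, and the list median was -0.58 (3 lower, median -0.15, on the deposited scale). Both counts include Dusp6, the deleted gene. Dusp16, a phosphatase of the stress kinases JNK and p38, was at 20.5 and 33.4 in WT and 46.5 and 22 in KO (interaction -2.15). Dusp6 itself rose in WT (1.17) and had an interaction of -1.52, with little transcript left in KO. Dusp1, Dusp4 and Dusp5 had interactions of -0.39, -0.24 and -0.17. Kinases of the cascade were near the background of 10.7%, with 4 of 37 lower and 1 higher (2 and 1 on the deposited scale), and the sign of their median of -0.22 changed with scaling. Sos1, which loads Ras with GTP, was at 4.14 and 3.09 in WT and 7.78 and 2.16 in KO. Map2k2, which codes for the ERK kinase MEK2, went the other way, from 39.8 to 16.2 in WT and from 37.2 to 56.8 in KO (interaction 1.42).

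Zfp36l1 and Zfp36, which bind AU-rich elements and hasten the decay of cytokine and immediate early transcripts, rose in WT and fell in KO. Zfp36l1 (Entrez 12192, chromosome 12, 80107760 to 80113013) went from 18.4 to 44.6 in WT and from 25.2 to 5.95 in KO. Zfp36, which codes for tristetraprolin (Entrez 22695, chromosome 7, 28376784 to 28379228), went from 3.85 to 16.9 in WT and from 8.59 to 3.75 in KO. In both genes KO was the higher genotype before treatment and the lower after it. Their interactions were -3.57 and -3.32, with ratios of read folds of 0.0713 (95% interval 0.0672 to 0.0756) and 0.0729 (0.0645 to 0.0825). Of 21 genes of RNA decay 9 were lower and 0 higher (median -0.61, or -0.18 with 4 lower on the deposited scale). The shares of all genes called lower were 10.7% and, on the deposited scale, 4.02%. Hnrnpd and Zfp36l2 passed the rule at -1.43 and -1.14, both with KO responses below -1 (-1.20 and -1.03). The deadenylase subunits Cnot7 and Cnot8 were at 0.22 and 0.42. Zfp36l1 and Zfp36 overlap a gene on the other strand, as do Hamp, Txnip and Phlda1, and Hnrnpa3, Adnp and Fdps overlap one on the same strand. The sources used here do not say whether counting used strand.

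**Figure D2:**
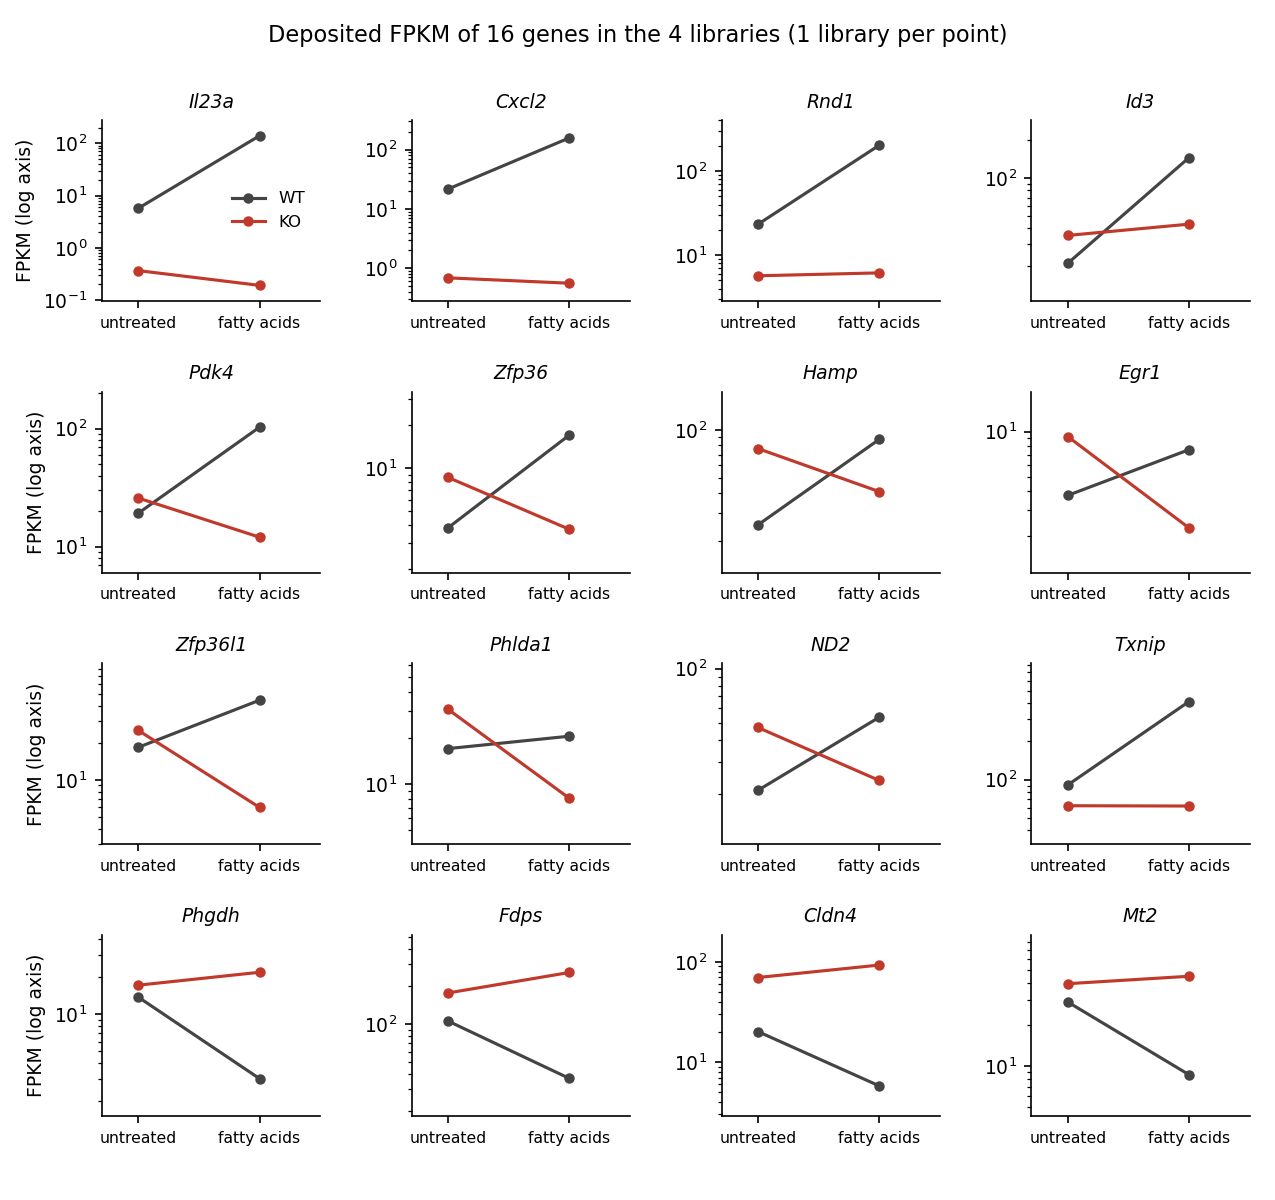
Deposited FPKM of 16 genes (log axes, each panel on its own range) without and with fatty acids, with WT in grey and KO in red and 1 library per point. WT lines of Il23a, Cxcl2, Rnd1 and Txnip rise over nearly level KO lines, the lines of Pdk4, Zfp36, Zfp36l1, Hamp, Egr1 and ND2 cross, and those of Phgdh, Fdps, Cldn4 and Mt2 fall in WT alone.

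Pdk4, Txnip, Arrdc4, Angptl4 and Hilpda, which act in fuel choice and lipid handling, rose in WT and not in KO. Pdk4 codes for a kinase that holds back pyruvate oxidation and is a classical PPARα target (Entrez 27273, chromosome 6, 5483351 to 5496278). Its FPKM went from 19.2 to 103 in WT and from 25.8 to 12 in KO, so the untreated libraries were close and the treated ones far apart. The responses were 2.62 and -1.20, and the ratio of read folds was 0.0638 (95% interval 0.0610 to 0.0667). Txnip and Arrdc4, related arrestins that limit glucose uptake, behaved alike. Txnip went from 90.9 to 411 in WT and was 62.5 and 62.2 in KO, and Arrdc4 went from 13.7 to 47.2 in WT and was 9.30 and 8.80 in KO. Angptl4, a secreted lipase inhibitor, had an interaction of -1.37, and Hilpda, an inhibitor of the lipase ATGL, one of -1.67.

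PPARα targets and oxidation enzymes as a list lay nearer to all genes. Of 46 compared, 8 were lower and 0 higher on the centred scale, and 3 were lower and 1 higher as deposited. For all genes these shares were 10.7% and 1.14% centred, and 4.02% and 6.35% as deposited. The list median of -0.45 took the other sign in TPM (0.06). Carnitine palmitoyltransferase Cpt1a had an interaction of -0.53, Ehhadh -0.52 and Acaa1b 0.39, none past the rule. The lipid droplet coat Plin2, induced by fatty acids in most cells, was at 1358 and 1850.4 in WT and 1004 and 1237 in KO (interaction -0.57). Plin3, another coat protein, was higher in KO at 1.06.

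The Cyp4a genes code for cytochromes that hydroxylate fatty acids at the omega end, and the study's title names them. Of 6 compared, 3 were lower in KO and 0 higher (median -0.95, or -0.52 with 2 lower on the deposited scale). Among all genes 10.7% were lower, and 4.02% on the deposited scale. Cyp4a12a was at 8.83 and 12.1 in WT and 21.5 and 8.71 in KO, and Cyp4a12b at 4.49 and 5.79 against 8.61 and 2.95. For this pair KO was above WT before treatment and below it after, with interactions of -2.05 and -2.01. Cyp4a14 was at 188 and 237 in WT but 1.43 and 1.03 in KO, and Cyp4a10 at 228 and 253 but 5.61 and 4.88. Both, like Cyp4a32 and Cyp4a31, were low in the 2 KO libraries. Whether this low level bears on their responses was not tested. The interactions of Cyp4a14, Cyp4a10, Cyp4a32 and Cyp4a31 were -1.02, -0.74, -0.88 and -0.60, of which the first passed the rule on the centred scale and not on the deposited scale (-0.60). These genes are near-copies of each other and reads may have been divided among them.

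Of 23 genes of gluconeogenesis and the insulin response 9 were lower and 0 higher. Their median was -0.67 (-0.25 with 5 lower on the deposited scale). The shares lower among all genes were 10.7% and, on the deposited scale, 4.02%. Pck1, which commits oxaloacetate to gluconeogenesis, went from 3.58 to 8.89 in WT and was 0.878 and 0.916 in KO. G6pc, which releases free glucose, went from 2.28 to 8.25 in WT and from 5.49 to 8.01 in KO, so the treated libraries ended close together. The glycogen synthase Gys2 had an interaction of -1.54, and the insulin receptor Insr, at -1.16, passed through a KO response of -1.26. Fbp1 and Slc2a2 were at -0.04 and 0.25.

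Hepcidin and an inhibitor of DNA binding, both known targets of BMP and SMAD signalling in liver, were among the 15 lowest genes. Hamp, which codes for the iron hormone hepcidin (Entrez 84506, chromosome 7, 30942368 to 30944029), went from 25.2 to 87.1 in WT and from 76.3 to 40.9 in KO, another crossing (interaction -3.06, ratio of read folds 0.114, 95% interval 0.104 to 0.125). Id3 went from 20.9 to 145 in WT and from 34.9 to 42.9 in KO (interaction -2.87). Id1 and Id2 had -0.98 and -0.73, and the feedback inhibitors Smad6 and Smad7 -0.07 and 0.01, none past the rule. Where 10.7% of all genes were lower, 5 of 23 genes of BMP and TGF-beta signalling were (median -0.61, -0.19 on the deposited scale). They included Inhba, the activin A subunit, at -2.27 and Tgfb2 at -1.65. Ferritin transcripts were mixed. That of the heavy chain, Fth1, was at 2531 and 3029.6 in WT and 3517 and 2083 in KO (-1.44). That of the light chain, Ftl1, had an interaction of -0.10.

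Transcripts of the mitochondrial genome had the lowest median of the 50 lists with at least 3 compared genes in FPKM, whereas in reads scaled by TMM the sinusoidal endothelial list was lower (-1.67 against -1.61). Of 13 protein-coding genes 11 were lower and 0 higher (median -1.69, or -1.26 with 9 lower on the deposited scale). Of all compared genes 10.7% were lower, and on the deposited scale 4.02% were lower and 6.35% higher. ND2, a subunit of respiratory complex I, went from 21.0 to 53.5 in WT and from 46.9 to 23.8 in KO, and ND4 from 42.7 to 79.0 and from 123 to 56.0. COX1, the most abundant of these by FPKM, went from 3987 to 8694 in WT and from 4838 to 6168 in KO (interaction -1.20). The genes did not move evenly, from -2.69 for ND2 to -0.52 for ND6 and -0.36 for ND3. The mitochondrial ribosomal RNA mt-Rnr1 had 489 and 1672 in WT and 735 and 468 in KO. Of 49 nuclear genes for the same respiratory complexes none was called, and their median was 0.05 (2 higher, median 0.47, on the deposited scale). Abundant noncoding RNAs were lower for 7 of 13 (2 lower and 1 higher on the deposited scale), among them Malat1, a nuclear long noncoding RNA, at 537 and 978 in WT and 611 and 349 in KO. Of 71 transfer RNA genes 62.0% were lower and of 368 long noncoding RNA genes 24.2%, against 9.20% of 10399 protein-coding genes. Copies of such genes cannot be told apart.

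Genes that fell in KO alone were long. The median of their longest transcript was 5773 bases, with a length for 337 of 364 genes, against 3247 over all compared genes. Across 10445 genes with a transcript length, Spearman's rank correlation of length with the response was -0.54 in KO and -0.18 in WT. Genes were also divided by length into 5 bins of like size. From the shortest to the longest bin, the median KO response went from 0.12 to -0.48 and the median WT response from 0.12 to -0.09. The share of genes called lower was 8.09% in the shortest bin and 16.7% in the longest. Of the calls, 979 lower and 117 higher had a length and could be adjusted for GC content and length, and 716 and 84 of these stayed past 2-fold. In all, 791 genes were lower and 112 higher after the adjustment. With a length for 76.9% of the lower calls, the adjustment is void as a check of that whole set. The cause of the length trend was not tested. Beside Phlda1, the class was led by Olfr1033, annotated as an olfactory receptor, from 27.0 to 5.62 in KO with 15 and 15.8 in WT, and Prg4, the lubricin gene, from 17.3 to 4.18 with 11.4 and 14.4 in WT. Ppp2r2a, a regulatory subunit of the phosphatase PP2A, was at 22.7 and 4.32 in KO and at 13.6 and 10.5 in WT. All 3 kept their calls after the adjustment, at -2.22, -2.46 and -2.13. Apob, the long apolipoprotein transcript, did not, moving from -1.17 to -0.41. Adnp and Hnrnpa3, of the 15 lowest, also had their largest value in untreated KO, with Adnp at 13.9 there and 2.26, 3.12 and 3.12 in WT untreated, WT treated and KO treated.

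**Figure D3:**
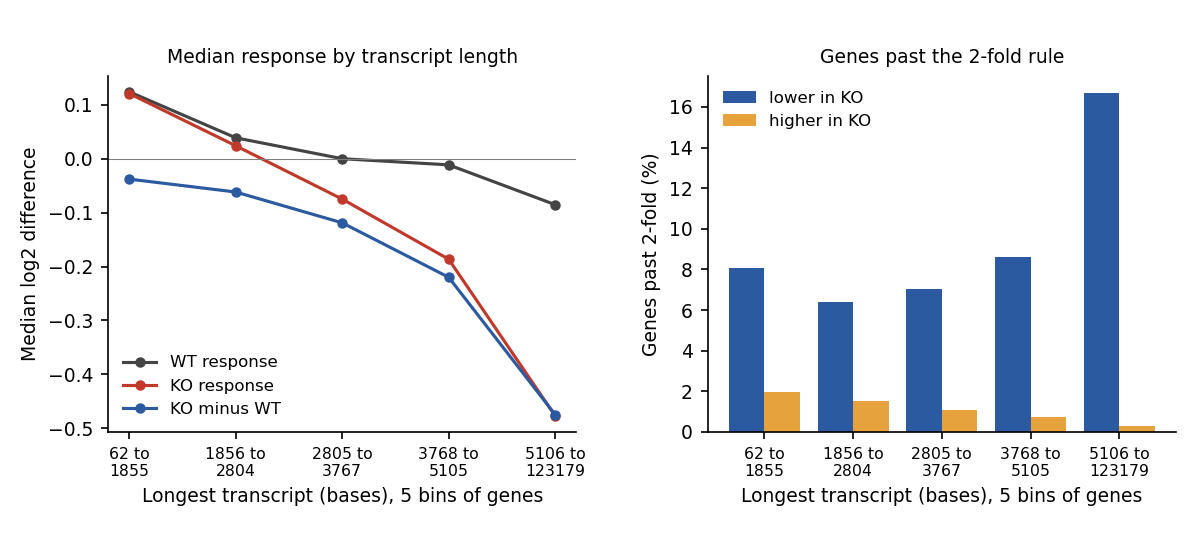
Left, median log2 response of genes in 5 bins of transcript length (bases of the longest annotated transcript) for WT, KO and their difference. Right, percent of genes in each bin past the 2-fold rule, lower or higher in KO. The KO line ends at -0.48 in the longest bin and the WT line at -0.09, and 16.7% of the longest genes were called lower.

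In the other direction, Phgdh and Psat1 of serine synthesis fell in WT alone. Phgdh, the first enzyme of serine synthesis (Entrez 236539, chromosome 3, 98313171 to 98339969), had the highest interaction outside predicted gene models at 1.77. Its FPKM went from 13.7 to 3.01 in WT and from 17.1 to 21.7 in KO, which left treated WT as the low library (ratio of read folds 4.22, 95% interval 3.81 to 4.67). The other enzymes of this route, Psat1 and Psph, were higher at 1.20 and 1.30. Psat1 went from 96.8 to 32.9 in WT and was 83.4 and 89.5 in KO. Sesn2, a stress-induced inhibitor of mTORC1, and the transcription factor Atf5 were at 1.44 and 1.15. In all, 5 of 33 targets of the stress factor ATF4 were higher and 0 lower, with a median of 0.43 (11 higher, median 0.85, on the deposited scale). Over all genes 1.14% were higher, and 6.35% on the deposited scale. Atf4 itself was at 0.47, and the targets Ddit3 and Chac1 at -0.35 and -0.26 on the other side of 0.

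Enzymes of cholesterol synthesis showed a partial pattern. Fdps, which makes farnesyl diphosphate, went from 106 to 36.7 in WT and from 177 to 259 in KO (interaction 1.62). In all, 4 of 30 genes under the factor SREBP2 were higher, among them Lss and Mvd at 1.12 and 1.06. Dhcr7, the last enzyme of the pathway, was lower at -1.65. The median was 0.24 (0.66 with 9 higher and 1 lower on the deposited scale). Among all genes 1.14% were higher, and 6.35% on the deposited scale.

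Mt2, Slc30a1 and Hspa1b, genes of metal and heat stress, also fell in WT alone. The metallothionein Mt2 went from 29.2 to 8.65 in WT and was 39.7 and 45 in KO, and the zinc exporter Slc30a1, which shares its metal-responsive factor, from 15 to 5.03 with 15.3 and 16.9 in KO. Their interactions were 1.40 and 1.12, and that of Mt1 was 1.01. Of 22 heat shock genes 2 were higher, Hspa1b at 1.45 and Hspe1 at 1.03. The list median was 0.37 (0.80 with 7 higher on the deposited scale), while Hsph1 and Bag3 were at -0.60 and -0.70. The share of all genes called higher was 1.14%, and 6.35% on the deposited scale. Among other genes with the 15 highest values, the tight junction gene Cldn4 went from 20.1 to 5.79 in WT and from 69.7 to 92.8 in KO. Cyp26a1, which degrades retinoic acid, went from 6.62 to 1.08 in WT and was 10.0 and 11.8 in KO. Mfge8, a bridge between phagocytes and dying cells, and Gadd45g, a growth arrest gene, were at 1.71 and 1.59. The sister gene Gadd45b was at -2.02, from 39.1 to 144 in WT and 12.3 and 15 in KO, so the family split. All 15 highest genes kept 2-fold under each of the 8 scalings, as did 13 of the 15 lowest. The other 2, Bc1 and mt-Rnr1, have no transcript length and could not be adjusted.

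Clock genes held members on both sides. Per1, a repressor of the clock, went from 2.44 to 6.06 in WT and from 4.35 to 1.64 in KO (interaction -2.48), and the repressor Nr1d1 from 2.35 to 4.38 and from 2.21 to 0.682. Arntl, whose product BMAL1 activates the loop, went from 3.91 to 1.04 in WT and from 2.70 to 3.82 in KO (interaction 1.23). Of 15 compared clock genes 5 were lower and 1 higher (2 and 1 on the deposited scale), where 10.7% and 1.14% of all genes were. Their median of -0.50 took the other sign in TPM (0.03), and Clock was at -0.30. The labels give no time of day.

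**Figure D4:**
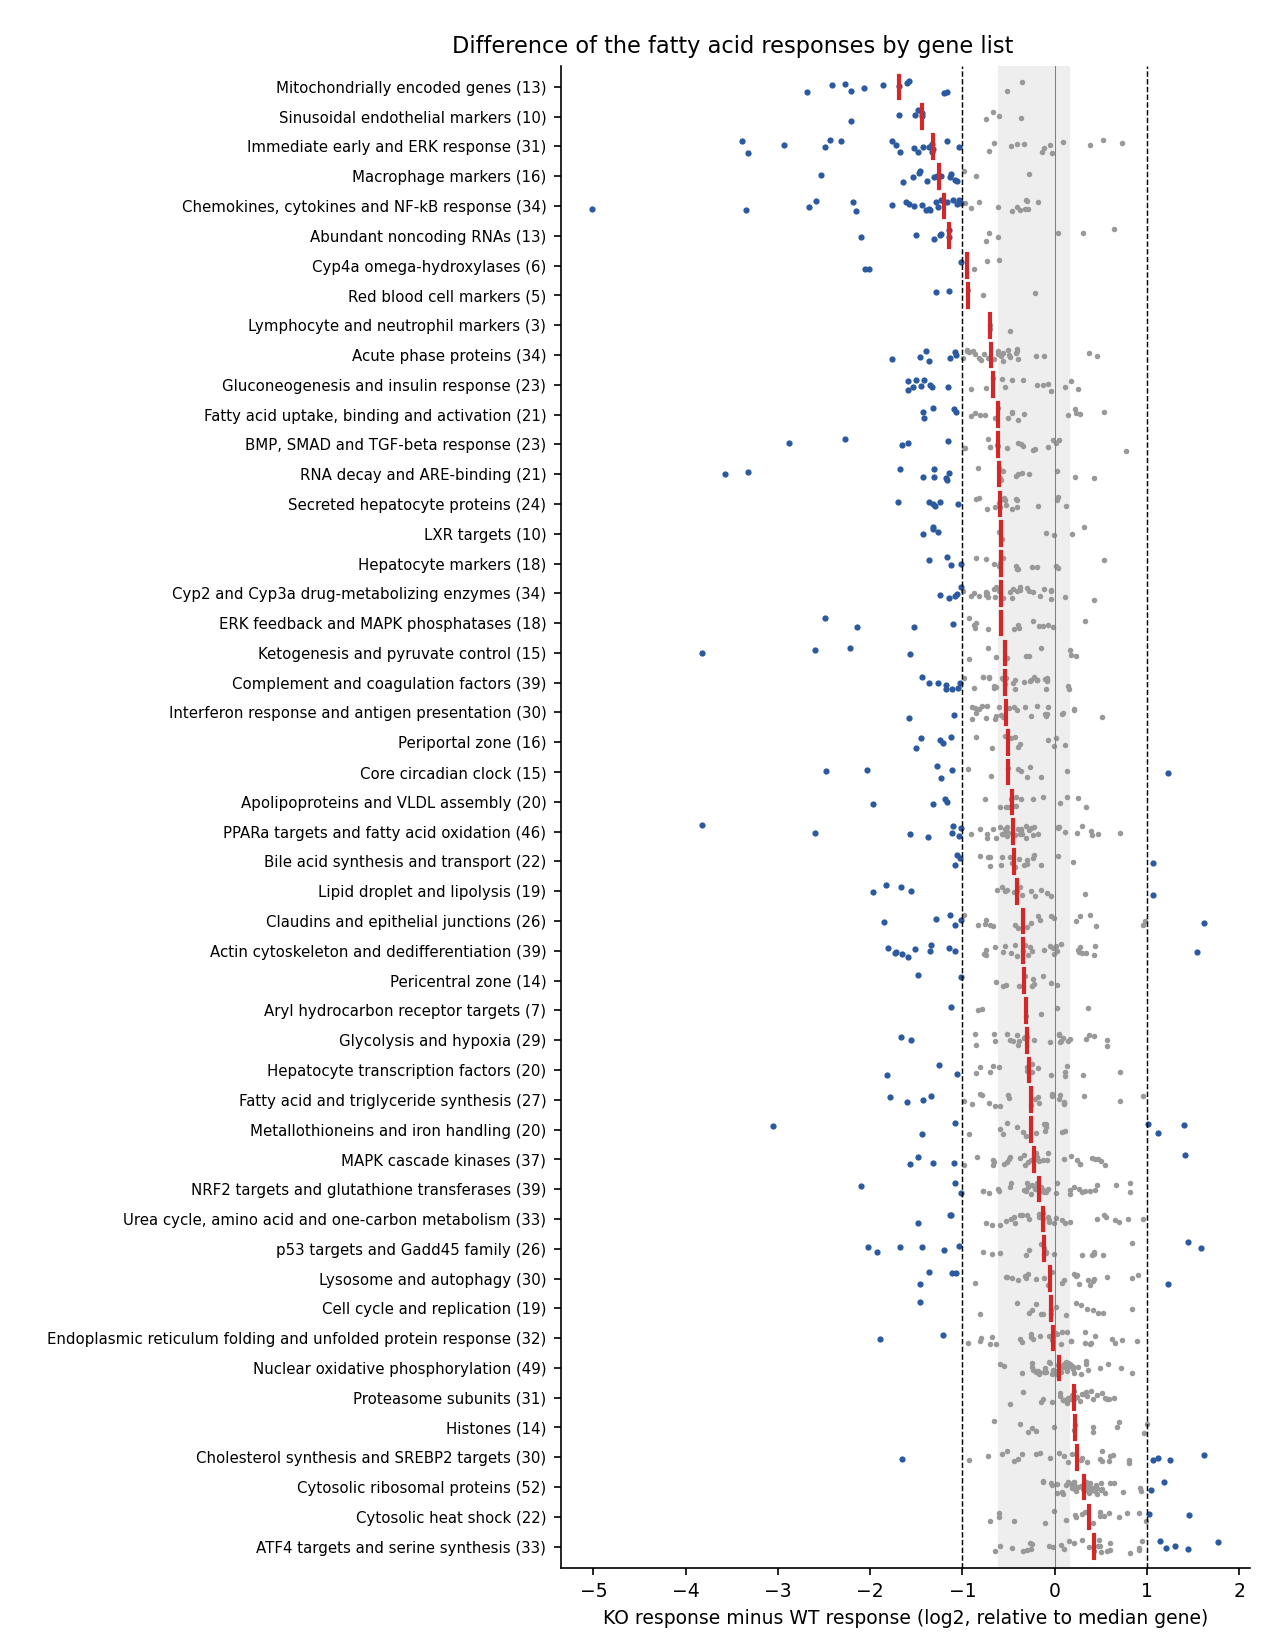
Interaction (KO response minus WT response, log2, relative to the median gene) of every compared member of 50 gene lists, with the number of members in brackets. Blue points are past the 2-fold rule, red bars are list medians, and the grey band is the interquartile range over all compared genes, -0.61 to 0.16. Medians run from -1.69 for mitochondrially encoded genes to 0.43 for ATF4 targets.

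Of the 50 lists, 16 had a median past 1.5-fold on the lower side and 0 on the higher side, where the median over all genes was -0.20. Acute phase proteins had 7 of 34 lower (median -0.69), secreted hepatocyte proteins 6 of 24 (median -0.60) and hepatocyte markers 4 of 18 (median -0.58), where 10.7% of all genes were lower. On the deposited scale, with 4.02% of all genes lower, these counts were 2, 1 and 0 and the medians -0.27, -0.17 and -0.16. Lcn2, an acute phase siderophore binder, went from 186 to 346 in WT and was 126 and 119 in KO. Ribosomal protein genes (2 of 52 higher, median 0.32) and proteasome subunits (0 of 31, median 0.21) lay together just above the median gene and moved up with the scale, to 0.75 and 0.63 as deposited.

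Measures of a gene did not always give the same call. Over the 11927 genes, interactions from FPKM and from read counts scaled by TMM correlated at Pearson's r = 0.945, and 1088 of the 1273 lower and 110 of the 136 higher calls passed in reads as well. Of 167 named genes past 2-fold, picked for large values, 163 did. Apoe, a lipoprotein ligand, was at -1.19 in FPKM and -0.09 in reads, and the ribosomal gene Rps24 at 1.18 and 0.04. Dedd2, which rose in KO alone, was at 1.14 and 0.60. Why the measures of these genes differed was not tested.

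**Figure D5:**
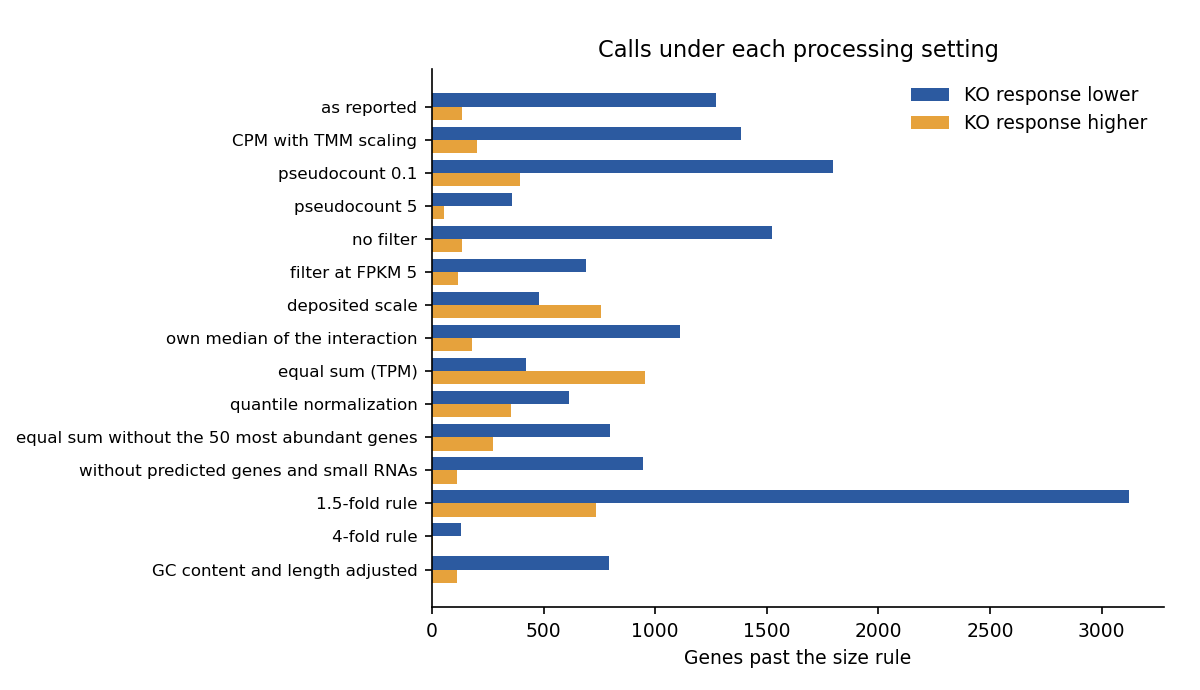
Number of genes whose fatty acid response was lower (blue) or higher (orange) in KO under each processing setting, with the 2-fold rule unless another is named. Lower calls outnumber higher calls as reported (1273 and 136), and the order is the reverse on the deposited scale (479 and 757) and with an equal sum (423 and 952).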

How the data were processed

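Total RNA of primary mouse hepatocytes was made into libraries with a stranded total RNA kit, per the labels' protocols. Tools listed in the submitters' processing notes, with no role given, are HISAT2 2.1.0, Bowtie2 and StringTie 2.1.3b, with FastQC 0.11.7 and Trimmomatic 0.38, and the build is mm10. Not given in the sources used here are the annotation, the way reads were counted and any use of strand. The authors deposited whole read counts, FPKM and TPM per gene for each of 4 libraries, per the file headers.

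The interaction was computed from the deposited FPKM as log2(FPKM + 1), with each response relative to its median over the 5903 reference genes. TPM and read counts (CPM with TMM factors from edgeR 4.0.16 in R 4.3.3) served as alternatives, and ratios of the deposited read counts gave exact intervals. Computation used Python 3.11.15, pandas 2.3.3, numpy 2.4.6, scipy 1.17.1 and scikit-learn 1.9.0, with figures from matplotlib 3.10.9. The steps were tested on simulated data. Because each group holds 1 library, a 2-fold rule replaced a test. A list was called where its median was past 1.5-fold.

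The text names the 15 highest and 15 lowest genes, up to 4 genes per response class and direction, up to 4 members per list and direction, Dusp6 and the Cyp4a genes. Predicted genes and small RNAs were left out of the ranking, which asked for an FPKM of at least 5 in the highest library. Further list members are given for their known roles. Members and lists were chosen with earlier results of these data known. The 52 lists held 1322 different genes, of which 1295 were in the table and 1113 were compared. Positions (11907 of the 11927 genes) and promoters come from RefSeq on GRCm38.p6, and transcript length and GC content (10445 genes) from GENCODE M21.

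Some genes of the lists are counted but not reported here by name.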

Additional observations from a re-analysis of the deposited data

Results flagged for a closer look

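In 8 named genes the responses of WT and KO pointed in opposite directions, each past 2-fold, in the single library of each group. The interactions were -3.83 for Pdk4, -3.57 for Zfp36l1, -3.32 for Zfp36, -3.06 for Hamp, -2.93 for Egr1, -2.69 for ND2, -2.48 for Per1 and -2.41 for ND4. WT rose and KO fell in all 8, and each interaction lay past 2-fold under each of the 8 scalings. That both responses were past 2-fold holds for the centred scale and was not counted under the other scalings. The difference was not tested, because no group holds a second library.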

How the results depend on the processing

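None of 14 other settings turned the direction of a named gene that was called. The count of genes higher in KO (136) became 394 with a pseudocount of 0.1 and 53 with 5, 757 on the deposited scale, 952 in TPM, 356 after quantile normalization, 273 at an equal sum without the 50 most abundant genes, 735 by a 1.5-fold rule and 3 by a 4-fold rule. The count lower in KO (1273) became 357 with a pseudocount of 5, 692 with a filter at FPKM 5, 479 on the deposited scale, 423 in TPM, 615 after quantile normalization, 799 without the 50 most abundant genes, 3123 by a 1.5-fold rule, 128 by a 4-fold rule and 791 after GC and length adjustment, which could be made for 979 of the lower calls. Under every scaling, an alternative added after the data were seen, 72 and 252 genes passed. The filter and the fold rules change the counts by construction, as does the deposited scale by shifting every gene alike. For the other settings the cause was not tested. Of the 170 named genes, 4 were no longer past 2-fold in reads, 51 on the deposited scale and 65 in TPM. Of the 50 lists, 10 lost their call on the lower side on the deposited scale and 6 gained one on the higher side.

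No paired analysis was possible because each group holds 1 library and the labels give no replicate numbers. Leaving out a library was not possible either, since the interaction needs all 4. Depth limits little for the abundant genes, but 44 lower and 4 higher calls rest on a library with 0 reads.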
